A study of Mus musculus with 6 samples.

Results

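The genes described here encode the proteins of the cytosolic ribosome. They were taken from the count tables by symbol: every row whose symbol starts with Rpl or Rps and a digit, with Rplp0, Rplp1, Rplp2 and Rpsa, and without the Rps6k kinases, pseudogene symbols and clone names. The rule found 87 of 24014 rows, of which 77 are core subunit genes (46 of the large and 31 of the small subunit) and 10 are paralogs, retrogenes or a binding partner that carries the name. The study sequenced polyadenylated RNA from epidermal cells of the back skin of wild type newborn mice at postnatal day 2. In 3 libraries the skin was healing from a blister raised by suction through a syringe, and the other 3 came from control skin of the same age and genotype. In both groups the epidermis was loosened with trypsin, minced and filtered, so a library holds whichever cells came away with it, and the labels do not give the number, sex or strain of the animals behind a library.

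The cytosolic ribosome is built of a small subunit, which reads the messenger RNA, and a large subunit, which joins amino acids. Its proteins are made in step with one another, and their messenger RNAs start with a tract of pyrimidines that places their translation under the control of the mTOR pathway. In mice, partial loss of several of these proteins shows in the skin and skeleton: variants of Rps19 and Rps20 darken the skin, and variants of Rpl24 and Rpl38 alter the belly coat and the tail.

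Total counts ran from 7600567 to 15912863 per library. Over the 14028 genes kept by a filter on low counts, edgeR's quasi-likelihood test called 1367 higher and 1626 lower in blister libraries (adjusted p below 0.05), and 544 and 2831 with library size alone as the scaling. Markers of basal keratinocytes summed to between 42060 and 59929 CPM (read counts scaled by library size and TMM factor) in blister libraries and between 23606 and 24004 CPM in controls, so the labelled cell type was present in each library. Control 3 stood apart from the other controls: its 12 dermal fibroblast markers summed to 7649 CPM against 1062 and 1454 CPM in control 1 and 2 and 630.02 to 1450 CPM in blister libraries, and its 5 muscle markers to 95.1 CPM against at most 2.75 CPM elsewhere. The dermal sum is carried by collagens and Postn, and 6 of the 12 dermal markers were also called lower in blister libraries as a group, with every blister library below every control (list median log2 fold change -2.55). Other cell types moved with the group as well: of 10 tested neutrophil markers 9 were higher (median 5.33), of 10 hair follicle markers 8 were lower (median -2.24), of 6 melanocyte markers 4 were lower (median -0.997) and of 10 genes of cycling cells 5 were higher (median 0.69). Control 3 was also the library in which 67 of the 83 tested ribosomal protein genes were lowest, a count not made over all genes. The part of these other cells in the results below was not tested. Values without control 3 and with the dermal marker level as a covariate are given. As 6 of the 12 dermal markers were lower in blister libraries, that covariate overlaps with the group, and the fit cannot separate the 2. Xist read 838, 879 and 8.49 CPM over blister 1, 2 and 3, against 1409, 16.9 and 0.512 CPM over control 1, 2 and 3, with high and low libraries in both groups. With Xist as a covariate 2 of the members stayed called, Rpl37 and Rpl39l. In bulk samples fewer cells of a type and less RNA per cell cannot be told apart.

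Nearly all ribosomal protein genes had a small positive estimate in blister libraries, and few of them passed the test. Of the 87, 83 passed the filter on low counts. Their estimate was above 0 for 81 of 83, against 50.1% of all genes tested. The median log2 fold change was 0.33 (quartiles 0.24 and 0.48), against 0.00 over all genes. The median member had a mean of 352 CPM, and abundant genes stood higher in general: the estimate was above 0 for 68.2% of genes averaging 100 CPM or more (median 0.19) and for 79.2% of those averaging 300 CPM or more (median 0.35). At an adjusted p under 0.05, 4 members were higher (9.74% of all genes were) and 1 was lower (11.6% of all genes), so 6.02% of the tested members were called against 21.3% of all genes. Called higher were 4.82% of the members, 20.4% of genes averaging 100 CPM or more and 30.7% of those averaging 300 CPM or more. For 31 members (37.3%) every blister library lay above every control library, which held for 21.4% of all genes tested. It held for 37.3% of genes averaging 100 CPM or more and for 49.5% of those averaging 300 CPM or more. For 1 member every blister library lay below every control (23.2% of all genes). The median standard error of a member's log2 fold change was 0.17. With errors of this size a member without a call may still differ. On simulated counts the same fit recovered 6 of 67 genes changed 1.5-fold. That simulation altered 67, 67 and 66 genes by 1.5-fold, 2-fold and 4-fold, while 2993 genes passed in the data. An adjusted p under 0.05 is harder to reach when few genes differ, so this rate cannot be carried over to the members. At an unadjusted p under 0.05, edgeR gave 28 members higher and 1 lower, and of all 14028 genes 5477 in either direction and 2669 higher. Of the 2258 genes averaging 100 CPM or more, 807 were higher at that threshold.

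The scaling sets where these genes stand against 0. Of all counts, the 87 genes took 3.97%, 4.70% and 3.57% in blister 1, 2 and 3, against 4.01%, 4.097% and 3.48% for control 1, 2 and 3. The groups overlapped, with a mean of 4.08% ± 0.573 against 3.86% ± 0.336 (SD, n = 3 each). Blister libraries carried more counts in their most abundant genes: the 50 most abundant genes held between 20.6% and 27.8% of counts in blister and between 14.2% and 17.8% in control libraries. TMM scaling allows for this by factors of 0.841 to 0.957 in blister and 1.06 to 1.11 in control libraries. With library size alone, the median over all genes tested moved to -0.25 and that of the ribosomal protein genes to 0.07. The estimate was then above 0 for 61 of the 83 members, against 29.9% of all genes, and edgeR called 0 higher (3.88% of all genes) and 1 lower (20.2%). At an unadjusted p under 0.05 this scaling gave 0 members higher and 1 lower, a count not given here for all genes. Every blister library lay above every control for 3 members (8.83% of all genes) and below for 1 (37.4%). Relative to the median of all genes, the members' median was 0.32 under TMM and 0.33 under library size. A scaling shifts all genes by nearly the same amount, so these values had to be close.

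**Figure D1:**
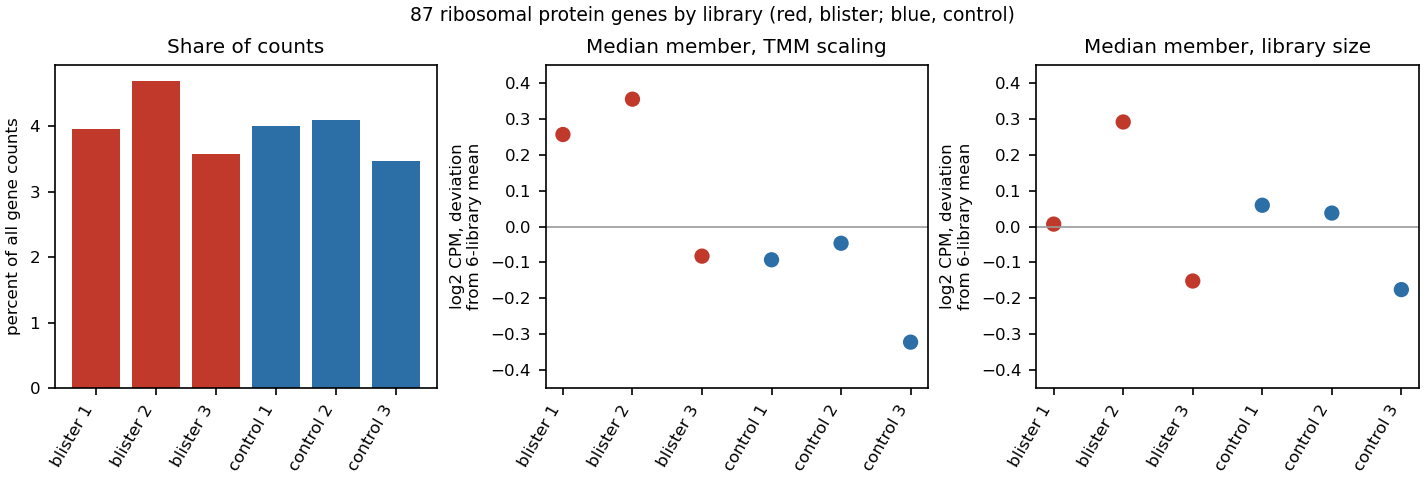
Percent of all gene counts in the 87 ribosomal protein genes (left, bars) and the median over the 83 tested members of the deviation of log2 CPM from each gene's 6-library mean, with TMM scaling (middle) and library size (right), for 3 blister (red) and 3 control (blue) libraries. The shares overlap between groups, blister 3 sits within the control range in every panel, and blister 1 does so in the left and right panels.

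The median level of the members differed between libraries of the same group. Over blister 1, 2 and 3 the median deviation of a member from its own 6-library mean (log2 CPM) was 0.26, 0.36 and -0.08, and over control 1, 2 and 3 it was -0.09, -0.05 and -0.32. Under TMM, blister 1 and 2 were above the controls, and blister 3 lay between control 1 and control 2. With library size alone, blister 2 (0.29) was above the controls and blister 1 (0.0069) was below control 1 and 2 (0.059 and 0.038). Of the 83 tested genes, 60 were highest in blister 2 and 21 in blister 1, and 0 were highest in blister 3. The same count was not made over all genes tested, so this is not shown to be particular to the members. Once the median profile was taken away, 73 of 83 members stayed within 0.5 log2 units of it in every library. The profile itself ran from -0.32 to 0.36, so a gene flat over all libraries would stay within 0.5 as well. This count therefore cannot show that members follow the profile. Leaving out blister 3 raised the number called from 5 to 30 (median 0.45), and leaving out any other library left 1 call, that of Rpl39l. With blister 3 and control 3 both left out, 15 were called and the median was 0.37. When the dermal marker level entered the model, edgeR called 0, and the median was 0.28. At an unadjusted p under 0.05 it gave 2 members higher and 1 lower, a count not given here for all genes. DESeq2, without that covariate, called 22. The calls over all genes moved in the same direction, from 2993 to 4061 without blister 3, to between 785 and 2073 without another library, to 397 with the dermal covariate and to 3978 by DESeq2.

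Transcript length and abundance moved with the fold change over all genes. Most members have short messenger RNAs, with a median annotated length of 774 bases. Among 1116 tested genes outside the list with transcripts under 1000 bases the median log2 fold change was 0.25, against 0.13 for those of 1000 to 2000 bases, -0.01 for 2000 to 3000, -0.07 for 3000 to 5000 and -0.22 for longer ones. Among the 137 short genes outside the list with a mean of at least 100 CPM the median was 0.45, and for the 65 members under 1000 bases it was 0.36. The part of length and abundance in the result was not tested.

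**Figure D2:**
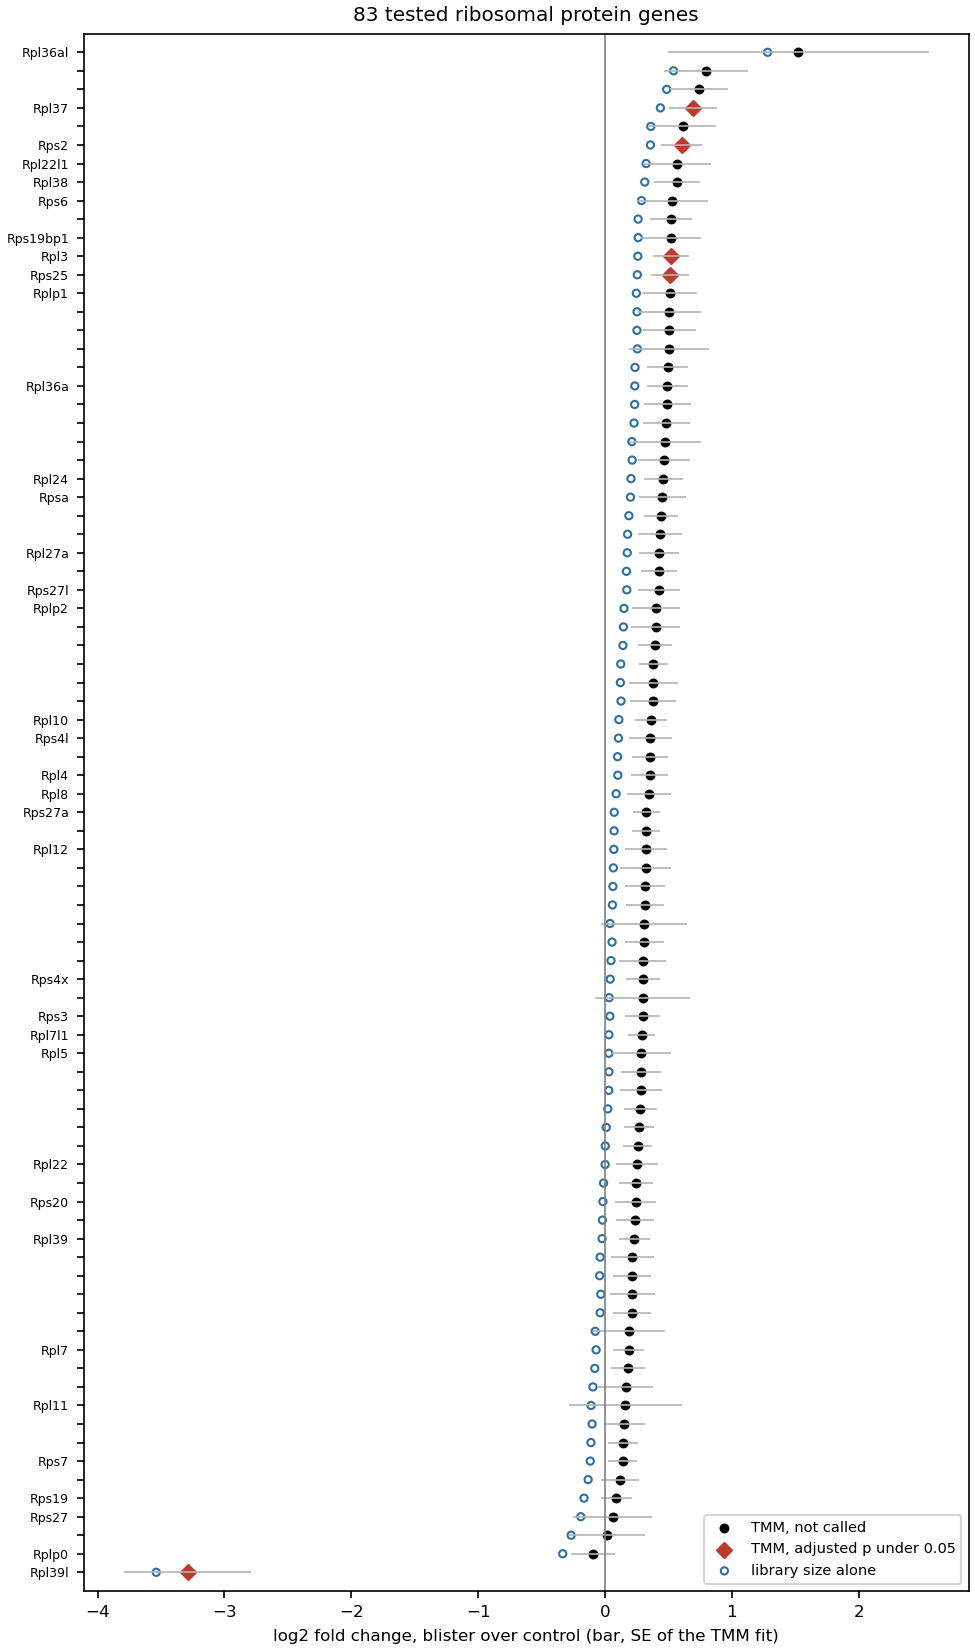
Log2 fold change, blister over control, of the 83 tested ribosomal protein genes with TMM scaling (filled, with SE) and with library size alone (open circles), in order of the TMM estimate, with names for genes chosen by the naming rule. Under TMM 81 genes lie above 0, and 5 pass an adjusted p under 0.05 (red diamonds).

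The 4 genes called higher belong to both subunits. Rpl3, which lies near the catalytic centre of the large subunit, reached 988, 864 and 818 CPM over blister 1, 2 and 3, against 675, 638 and 553 CPM over control 1, 2 and 3. The groups did not overlap, and the log2 fold change was 0.52 ± 0.14 (SE, edgeR adjusted p = 0.0394). Rps2, a small subunit protein at the entry of the messenger RNA channel, was at 471, 572 and 434 CPM against 326, 366 and 278 CPM in the same order. Its groups were apart as well, with a log2 fold change of 0.61 ± 0.16 (adjusted p = 0.0372). Rps25, a protein of the head of the small subunit known for its part in internal initiation, was at 567, 559.6 and 485 CPM against 401, 415 and 315 CPM (0.51 ± 0.15, adjusted p = 0.0494). Rpl37, a zinc-binding protein of the large subunit, was at 430.2, 460.2 and 342 CPM against 315, 236 and 210.3 CPM, again without overlap (0.69 ± 0.19, adjusted p = 0.0405). Of the 6 fits with 1 library removed, 5 lost each of these 4 calls, and the edgeR adjusted p reached 0.124 for Rpl3, 0.116 for Rps2, 0.139 for Rps25 and 0.115 for Rpl37. Each was also lost with library size or upper-quartile scaling. Rps25 shares exon sequence with Ccdc84 and Trappc4 on the opposite strand in the GENCODE M21 annotation, with a strand setting of the counting not given in the sources used here.

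Rpl39l, a paralog of Rpl39 known mainly from the testis, was the member called lower. It had 1, 1 and 2 counts in blister 1, 2 and 3 and 13, 19 and 32 counts in control 1, 2 and 3, so the groups did not overlap. In CPM these were 0.0918, 0.138 and 0.170 against 0.997, 1.33 and 1.82. The fitted log2 fold change was -3.29 ± 0.50 (SE, edgeR adjusted p = 0.00869), a value from 68 counts in all that depends on the prior count of the fit. Removing any 1 library kept the call. With the dermal covariate it was lost, where calls over all genes fell from 2993 to 397. The gene was highest in control 3, the library with most dermal fibroblast RNA. Dermal markers summed to 1062 and 1454 CPM in control 1 and 2, against 1450 CPM in blister 2. For Rpl39l the part of dermal RNA was not tested. Its counterpart Rpl39, at the exit tunnel of the large subunit, was at 316, 305 and 288 CPM against 271, 273 and 230.1 CPM (edgeR adjusted p = 0.202). All 3 blister libraries of Rpl39 were above the controls under TMM, and its estimate was -0.02 with library size alone.

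**Figure D3:**
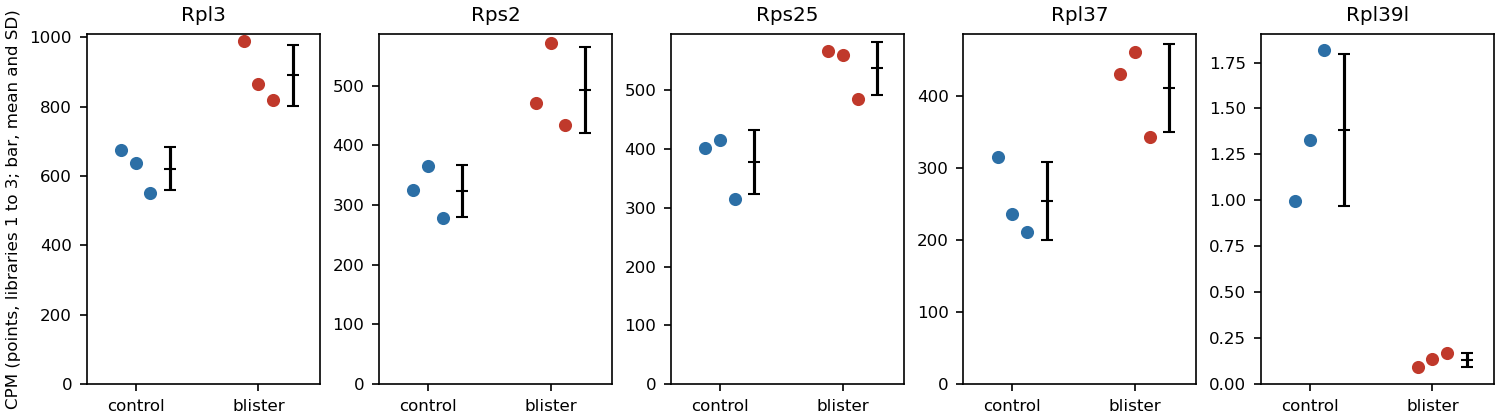
CPM of the 5 called ribosomal protein genes in the 3 control (blue) and 3 blister (red) libraries, ordered 1 to 3 from left to right, with mean and SD as bars. The groups do not overlap in any of the 5 panels, and Rpl39l is at or under 1.82 CPM throughout.

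Promoters of the members are described for their sequence alone, and their part in the values above was not tested. RefSeq windows of GRCm38.p6, from 250 bases before to 50 after the annotated start, matched 66 of the 87 genes. The letters CTTCCG or, on the other strand, CGGAAG, the core of sites for ETS factors such as GABPA, occurred in 44 of the 66 (66.7%), in 32.9% of 10436 tested genes with such a window and in 18.8% of all 27025 genes of the table. A run of at least 5 C or T that overlapped positions -5 to 10 around the start was found in 42 members (63.6%), against 43.1% of the tested genes. The letters TATAAA (or TTTATA) were in 7 members (10.6%, against 9.56%) and CACGTG in 6 (9.09%, against 11.5%). Below are, 5′ to 3′, bases -100 to 15 around the start of 3 genes called higher, of Rps6 and of the gene called lower, with CTTCCG or CGGAAG in capitals. Rps2 is shown as a called gene without the letters in this stretch.
Rps2, chr17:24719963-24720077, plus strand: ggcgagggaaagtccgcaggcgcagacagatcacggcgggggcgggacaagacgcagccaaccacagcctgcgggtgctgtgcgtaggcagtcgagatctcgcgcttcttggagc
Rps25, chr9:44407614-44407728, plus strand: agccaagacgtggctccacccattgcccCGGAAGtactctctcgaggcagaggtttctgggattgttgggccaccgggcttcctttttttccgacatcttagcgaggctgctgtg
Rpl37, chr15:5116513-5116627, plus strand: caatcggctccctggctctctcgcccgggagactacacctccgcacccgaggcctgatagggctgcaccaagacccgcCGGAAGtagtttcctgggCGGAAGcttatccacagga
Rps6, chr4:86857353-86857467, minus strand: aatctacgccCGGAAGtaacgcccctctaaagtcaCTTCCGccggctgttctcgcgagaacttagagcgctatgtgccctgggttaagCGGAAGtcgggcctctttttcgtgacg
Rpl39l, chr16:10170128-10170242, plus strand: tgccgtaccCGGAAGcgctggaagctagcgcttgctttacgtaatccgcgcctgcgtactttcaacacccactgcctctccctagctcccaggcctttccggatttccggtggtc
Rps6 holds the letters 3 times in this stretch and starts within the pyrimidine run CCTCTTTTTC, Rpl37 holds them 2 times, and Rps25 and Rpl39l 1 time each. Rps2 holds them 0 times here and 2 times in its whole window. The 43 tested members with the letters had a median log2 fold change of 0.36 and the 19 without them 0.31. A match in the letters is no evidence of binding.

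The acidic stalk, which recruits elongation factors to the large subunit, held estimates of both signs, none of which passed the test. Rplp0, its base, stood at 1732, 2493 and 2156 CPM over blister 1, 2 and 3, against 2228, 2514 and 2067 CPM for the controls, with a log2 fold change of -0.09 ± 0.17 (edgeR adjusted p = 0.717) that was 0.05 without blister 1. It was the single core gene with an estimate below 0, and its groups overlapped. Rplp1 was at 2308, 1603 and 1727 CPM against 1278, 1652 and 1033 CPM (0.51 ± 0.22, edgeR adjusted p = 0.129), and Rplp2 at 631, 718 and 493 CPM against 508, 507 and 379 CPM (0.40 ± 0.19, adjusted p = 0.154). Rpl12, which sits at the foot of the stalk, was at 564 ± 92.7 against 450.3 ± 50.3 CPM (SD, n = 3). Per kilobase of annotated transcript Rplp1 stood highest of all members, at a mean of 3207 CPM per kilobase, with Rplp0 at 1619 and Rplp2 at 1201.

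The other abundant members, with Rpsa and Rps6, did not pass the test either. Rpl4, which lines the exit tunnel, was at 2970, 3083 and 2670.4 CPM against 1974, 2500.1 and 2357 CPM, with every blister library above every control (0.35 ± 0.15, edgeR adjusted p = 0.118). Rpl8, a neighbour of the catalytic centre, was at 2346, 2415 and 1727 CPM against 1736, 1861 and 1516 CPM, with blister 3 just below control 1 (edgeR adjusted p = 0.181). Rps3, at the messenger RNA entry, was at 1713, 1562 and 1377 CPM against 1257, 1319 and 1212 CPM (0.30 ± 0.14, adjusted p = 0.147). Rpsa, a small subunit protein also described as a laminin receptor, was at 1543, 1659 and 1182 CPM against 969.7, 1275 and 958 CPM (0.45 ± 0.19, adjusted p = 0.115). Rps6, the substrate of the S6 kinases, was at 525, 697 and 419.8 CPM against 249.3, 486 and 401 CPM, a range within each group wider than the difference of the means (0.53 ± 0.28, adjusted p = 0.196).

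Genes of both subunits were among those called, at shares below the 9.74% of all genes called higher. Of 45 tested core genes of the large subunit 2 were higher and 0 lower (median log2 fold change 0.36), and of 31 of the small subunit 2 were higher and 0 lower, with a median of 0.30. The difference between the subunits was not tested. Rpl41, which encodes the smallest ribosomal protein and is named here after its values were seen, stood at 1181, 1360.3 and 739 CPM over blister 1, 2 and 3, against 639.9, 726 and 597 CPM for the controls (edgeR adjusted p = 0.0561). Blister 3 lay close to control 2, and the other blister libraries were far above every control. Rpl5 and Rpl11, which with 5S ribosomal RNA bind Mdm2 when ribosome assembly fails, were at 642 ± 94.0 against 526 ± 150.1 CPM and at 257 ± 145 against 230.2 ± 36.6 CPM (SD, n = 3, edgeR adjusted p = 0.396 and 0.817). Rpl11 had an estimate of 0.16 that was -0.11 with library size alone, and that of Rpl5 was -0.10 with the dermal covariate. Rps27a, made as a fusion with ubiquitin, was at 84.6 ± 2.58 against 67.5 ± 5.97 CPM with no overlap (0.33 ± 0.11, adjusted p = 0.069).

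The members whose loss shows in mouse skin or skeleton did not pass the test. Rps19 read 247, 262 and 223 CPM over the blister libraries, against 243, 234 and 212 CPM for controls, one of the smallest differences of the list (0.09 ± 0.12, edgeR adjusted p = 0.623). Rps20 was at 1109, 1043 and 817 CPM against 853, 912 and 746 CPM (0.24 ± 0.16, adjusted p = 0.297). Rps7 was at 383 ± 16.2 against 348 ± 21.1 CPM (adjusted p = 0.408) and Rpl27a at 305 ± 53.9 against 227 ± 18.4 CPM (adjusted p = 0.0895). Rpl24 was at 712, 797 and 581 CPM against 511, 541 and 469 CPM (0.46 ± 0.15, adjusted p = 0.0693), and Rpl38 at 296, 363 and 242 CPM against 227, 207 and 174 CPM (0.57 ± 0.18, adjusted p = 0.061). Their blister libraries all lay above the controls for Rpl24, Rpl38, Rpl27a and Rps7, and overlapped them for Rps19 and Rps20. With library size alone the estimates of Rps19, Rps20 and Rps7 were -0.17, -0.02 and -0.12.

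Paralogs were set against their counterparts within each library, a ratio that does not depend on the scaling. Over 7 pairs, exact two-sided permutation tests over libraries gave adjusted p of 0.467 to 0.8, and with 3 against 3 libraries the smallest unadjusted p is 0.1. Rpl22l1, a relative of Rpl22 that can replace it, lay at a log2 ratio to Rpl22 of -2.33, -1.69 and -1.83 in blister libraries and -1.93, -2.38 and -2.49 in controls. The groups overlapped (difference 0.32, p = 0.2, exact permutation test). The groups were apart for Rpl39l over Rpl39 alone, with a log2 ratio of -10.7 ± 0.406 in blister and -7.55 ± 0.543 in control libraries (SD, n = 3, exact permutation p = 0.1, adjusted 0.467). Rps27l, a target of p53, differed from Rps27 by 5.29 ± 0.161 log2 units in blister and 4.95 ± 0.308 in control libraries (exact permutation p = 0.3), where Rps27 held 158 counts in all. The ratio of Rpl7l1 to Rpl7 was -2.68 ± 0.0527 against -2.78 ± 0.0533, and that of Rps4l to Rps4x -4.43 ± 0.133 against -4.498 ± 0.267, with overlap in both. Rps19bp1, a binding partner of Rps19 and not a subunit, was at 41.4 ± 13.3 against 28.8 ± 2.12 CPM (edgeR adjusted p = 0.147).

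A total of 3 members left the median profile by more than 1 log2 unit in some library: Rpl36al, Rpl39l and Rpl11, singled out after their values were seen. Rpl36al, a paralog of Rpl36a, varied most, with 480.5, 579 and 48.9 CPM over blister 1, 2 and 3, against 68.2, 291 and 25.7 CPM over control 1, 2 and 3. Its level was high in blister 1, blister 2 and control 2 and low in the other 3 libraries, so it followed neither the group nor the other members, and its log2 fold change of 1.52, the largest of the list, had a standard error of 1.03 (edgeR adjusted p = 0.303). In the GENCODE M21 annotation Rpl36al shares exon sequence with Gm49383 on the same strand, as 19 of the 87 members do with some gene on either strand. The part of such overlaps in the counts was not tested. Rpl36a itself was at 133, 139 and 100.3 CPM against 92.0, 97.0 and 76.1 CPM. Rpl11 was at 339, 342 and 89.9 CPM against 242, 259 and 189 CPM, low in blister 3. Rpl6 and Rpl10a were low in control 3 (293 and 435 CPM, against at least 524 and 829 CPM elsewhere). Ribosomal protein genes have many near-identical processed copies in the mouse genome, with a treatment of reads that fit more than 1 place not given in the sources used here.

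**Figure D4:**
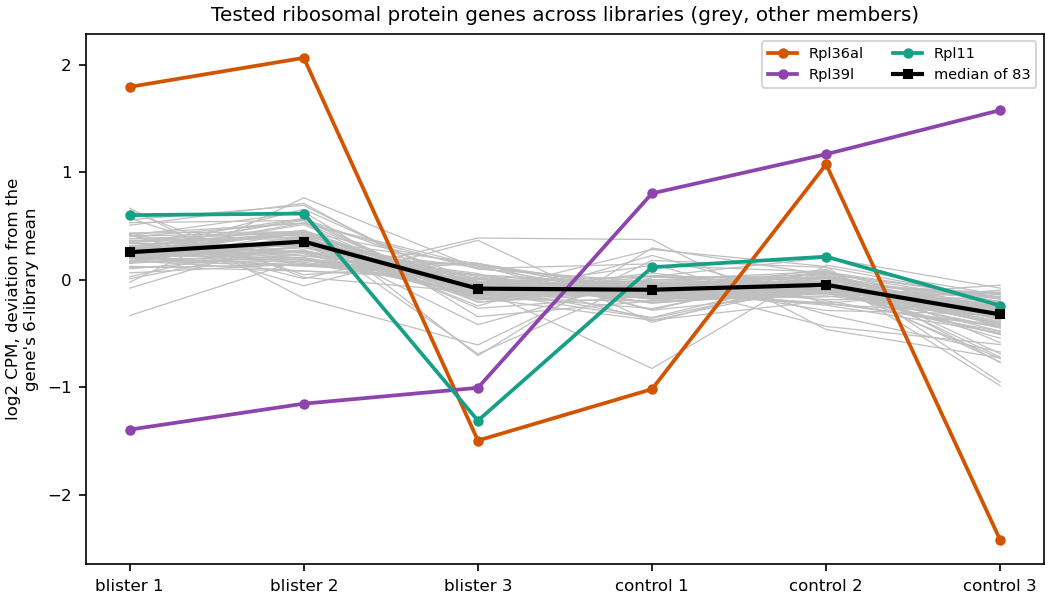
Deviation of log2 CPM from each gene's 6-library mean for the 83 tested members (grey), their median (black squares) and the 3 genes that left it by more than 1 log2 unit. Rpl36al is high in blister 1, blister 2 and control 2, Rpl11 lies at -1.31 in blister 3 and Rpl39l runs against the others.

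Counts of some core genes were far below the rest in every library. Rpl26 had 0 counts in all 6 libraries, which allows up to 3 counts of 74082988, or 0.0405 CPM before TMM scaling. This limit holds only if reads of Rpl26 are assigned to its row, which was not tested. Among other genes, Hba-a1, Hba-a2, Hbb-b1, Hbb-bt and Hbb-bs were also at 0 in all 6 libraries. Rps27, Rpl30 and Rpl34 averaged 2.23, 3.31 and 4.99 CPM in blister and 2.11, 2.34 and 2.86 CPM in control libraries. Every other tested core gene averaged at least 38.4 CPM in each group, so these 4 core rows hold too few counts to follow their genes. Rps27rt, a retrogene of Rps27, had 0 counts, Rpl10l 3 and Rpl3l, known from muscle, 13 counts over all libraries, and these 3 were not tested. Of 7 pseudogene rows 5 were tested and 0 called, with Rpl14-ps1 at 740.5 ± 81.7 against 559.8 ± 37.2 CPM (edgeR adjusted p = 0.0713). At an unadjusted p under 0.05, 2 of the 5 were higher, and DESeq2 called 2.

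Many factors that work with the ribosome rose in blister libraries. Of 35 tested initiation factors 13 were higher and 0 lower (median log2 fold change 0.36), and of 12 elongation and release factors 7 were higher and 0 lower (median 0.48), against 9.74% higher over all genes. Both lists hold abundant genes, and of all genes averaging 100 CPM or more 20.4% were called higher (median 0.19), and of those with at least 300 CPM 30.7% (median 0.35). As shares, 37.1% of the first list and 58.3% of the second were called, and the difference from the ribosomal protein genes was not tested. Eif6, which keeps the free large subunit from joining the small one, was at 198, 215 and 159 CPM over the controls and rose to 448, 459 and 313 CPM after blistering (1.09 ± 0.19, edgeR adjusted p = 0.0128). Eif1ax, which helps the small subunit scan for the start codon, rose from 89.3 ± 4.71 to 140.5 ± 16.3 CPM (0.65 ± 0.12, adjusted p = 0.0141). The elongation factor gene Eef1d rose from 239 ± 41.7 to 441 ± 91.3 CPM (0.88 ± 0.20, adjusted p = 0.0244) and Gspt1, a termination factor gene, from 152 ± 6.73 to 211 ± 11.3 CPM (0.47 ± 0.11, adjusted p = 0.0233). Without blister 1, blister 2, control 1, control 2 or control 3 the initiation factors had 2, 8, 1, 2 and 3 calls and the elongation and release factors 0, 2, 0, 0 and 0, and with the dermal covariate both had 0. Eif6 stayed called whichever 1 library was removed, while Eef1d and Gspt1 lost their calls in 5 and 4 of these 6 fits.

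Mitochondrial ribosomal protein genes, which serve a separate ribosome, also had positive estimates under TMM. All 77 had an estimate above 0 (median log2 fold change 0.43), against 50.1% of all genes, and 13 were higher and 0 lower. This made 16.9% called higher, against 9.74% of all genes and 14.4% of genes averaging 30 CPM or more. Of these more abundant genes 61.1% had an estimate above 0 (median 0.11). The median mitochondrial ribosomal protein gene averaged 41.2 CPM. Mrpl30 rose from 43.1 ± 3.88 to 65.1 ± 7.47 CPM and Mrps25 from 27.8 ± 3.50 to 45.8 ± 8.30 CPM (edgeR adjusted p = 0.0216 and 0.0269). Without blister 3 the number called was 42, without blister 2 it was 1, and without blister 1, without any 1 control or with library size alone it was 0. The share of called genes was not tested between the lists.

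Other partners held calls too. Among 9 genes for other subunits and ribosome-bound proteins 3 were higher and 0 lower (median 0.24), or 33.3% against 9.74% of all genes. Npm1, a nucleolar chaperone of ribosome assembly, rose from 394 ± 23.5 to 673 ± 91.7 CPM and Serbp1, which clamps idle ribosomes, from 654 ± 74.0 to 1126 ± 140.3 CPM (edgeR adjusted p = 0.0139 and 0.0167). The third was Btf3. Fau and Gnb2l1 (Rack1), subunit genes that the symbol rule misses, had log2 fold changes of 0.24 and 0.21 and were not called. Of 17 regulators 2 were higher and 1 lower under TMM, 1 and 2 with upper-quartile scaling, and 0 and 3 with library size alone. Of all genes 9.74% were higher and 11.6% lower under TMM, and 3.88% and 20.2% with library size. Under TMM 17.6% of the regulators were called in either direction, below the 21.3% of all genes. Eif4ebp1, a repressor of cap-dependent initiation that mTOR switches off, was at 45.4, 51.2 and 43.5 CPM over the controls and rose to 73.2, 95.4 and 63.5 CPM after blistering (0.73 ± 0.17, adjusted p = 0.024). Eif2ak4, the kinase that senses uncharged transfer RNA, fell from 27.0 ± 5.55 to 16.6 ± 2.09 CPM (-0.71 ± 0.19, adjusted p = 0.0373). The other call was Rheb, the activator of mTOR. Without blister 1 or any 1 control, and with the dermal covariate, 0 regulators were called.

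**Figure D5:**
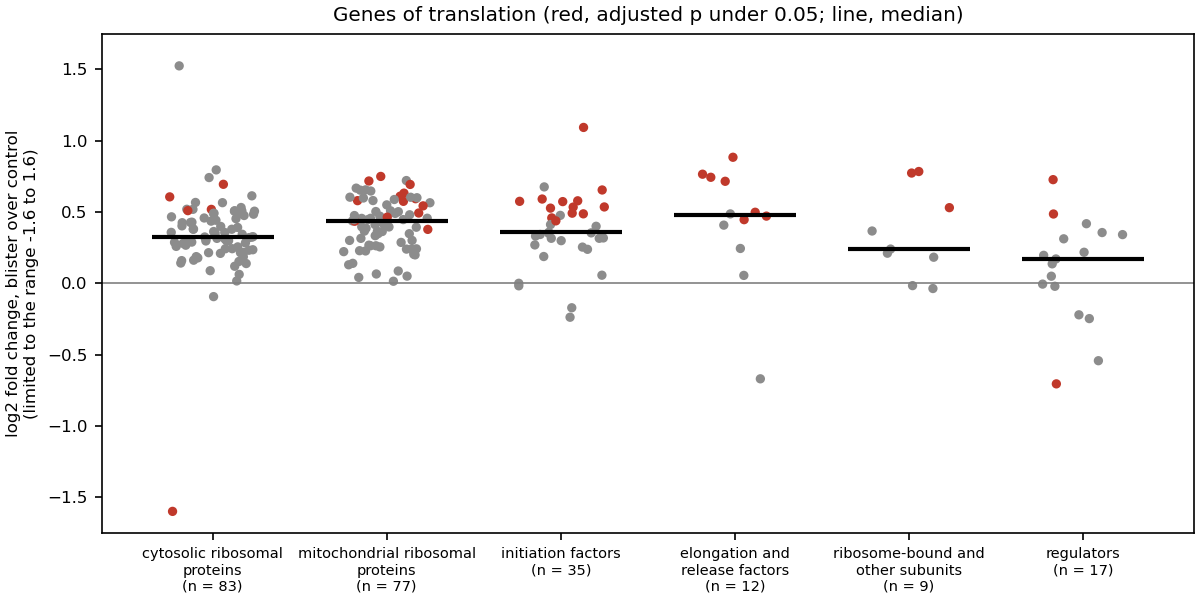
Log2 fold change, blister over control, of tested genes in 6 lists (points; red, adjusted p under 0.05; line, median), with values drawn no lower than -1.6, which limits Rpl39l at -3.29. Medians run from 0.17 for regulators to 0.48 for elongation and release factors, and 5 of 83 cytosolic ribosomal protein genes are red against 13 of 35 initiation factors.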

How the data were processed

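The values are whole-number read counts per gene symbol as deposited by the authors, 1 table for each of the 6 libraries, with 7600567 to 15912863 counts. The submitters' processing notes name HISAT2 2.0.0, featureCounts, NCBIM37 and mm9, with the featureCounts version, strand setting and treatment of multiply mapped reads not given in the sources used here. Blister and control libraries were compared with edgeR 4.0.16 under R 4.3.3: TMM scaling, quasi-likelihood F-tests, group as the single term, filterByExpr by group (minimum count 10, minimum total 15). P-values are two-sided and Benjamini-Hochberg adjusted over 14028 genes at a threshold of 0.05. Errors of log2 fold changes are SE. Log2 CPM used a prior count of 2 and paralog ratios an offset of 0.5 counts. Nothing in the labels ties a library to its own animal, so the spread behind the p-values may in part be technical. Xist ran from 8.49 to 879 CPM in blister and from 0.512 to 1409 CPM in control libraries. The libraries of a group therefore do not all come from the same animals. The limit for 0 counts covers counting error only. No library was a copy of another within its group.

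Members and lists were chosen with earlier results of these data known. Named were called members (up to 8 in each direction), the 6 most abundant, the role list (stalk, 5S particle, ubiquitin fusion, paralogs, skin and skeleton genes, Rps19bp1), Rpsa and Rps6, and the pair of smallest p-values in each partner list. Others were named after their values were seen. GENCODE M21 (all 87 symbols matched) gave lengths and overlaps and RefSeq the promoters, both on another build than the counts. Alternatives were other scalings and filters, covariates, a replicate block, DESeq2 1.42.0, limma-voom 3.58.1, robust edgeR and removal of libraries. The procedure was tested on simulated data. Plots used matplotlib 3.10.9.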

Additional observations from a re-analysis of the deposited data

How the results depend on the processing

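Against 5 ribosomal protein genes called, edgeR called 1 with library size alone or upper-quartile scaling, 3 with no filter or with at least 5 CPM in 3 libraries, 2 with Xist and 0 with the dermal markers as a covariate, and 15 without blister 3 and control 3 (chosen after seeing the data); DESeq2 called 22, and removing 1 library gave 1 to 30. The samples share replicate numbers, but deviations of same-numbered samples correlated at 0.21, -0.26 and 0.01 and 2 of 6 libraries correlated best with their own number. With the replicate block 15 ribosomal and 28 mitochondrial ribosomal protein genes were called, against 5 and 13, and Rpl11 was at -0.049. Initiation factors gave 3 calls with library size (2 higher and 1 lower), 5 with Xist, 0 with the dermal covariate, 21 by DESeq2 and 1 to 22 with 1 library removed, against 13, all higher. Elongation and release factors gave 0 with library size, 4 with upper-quartile scaling, 1 with Xist, 0 with the dermal covariate and 0 to 9 with 1 library removed, against 7. Mitochondrial genes gave 0, 3, 1 and 0 under those settings, 30 by DESeq2, 33 without blister 3 and control 3, and 0 to 42. Regulators gave 0 with either covariate, 6 by DESeq2, 5 without blister 3 and control 3 and 0 to 5, against 3, and with library size their 3 calls were all lower. Ribosome-bound partners gave 0 with the dermal covariate and 0 to 4, against 3, and pseudogene rows 2 by DESeq2 and 0 to 1, against 0. The members' median log2 fold change was 0.073 with library size and 0.27 to 0.45 with 1 library removed. The share of counts differed by 0.218 percentage points between the groups, by 0.741 without the 50 most abundant other genes in the denominator, and by -0.09 to 0.47 with 1 library removed. With library size Rpl11, Rps27, Rpl7, Rpl39, Rps19, Rps20 and Rps7 had log2 fold changes of -0.11, -0.19, -0.070, -0.023, -0.17, -0.017 and -0.12. Rpl11 was at -0.32 with Xist and -0.058 in limma-voom, and -0.10 to 0.57 with 1 library removed. Rps27 was at -0.00059 with upper-quartile scaling, -0.065 with Xist and -0.14 to 0.21 with 1 library removed. Rpl5 was at -0.10 with the dermal covariate. With 1 library removed Rplp0 ran from -0.21 to 0.047 and the ratio of Rps4l to Rps4x differed by -0.079 to 0.18. The dermal covariate, which overlaps with the group, left 397 calls over all genes, against 2993. The cause of these changes was not tested.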
